A study of Mus musculus with 51 samples.

Results

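The genes described here peaked transiently on day 1 of mesoderm differentiation. They are the 84 of 24538 genes whose FPKM (a level of fragments scaled to transcript length and library size) on day 1 was at least 3 and at least 1.5 times that at each of the other 3 stages of a wild-type (WT) time course. The members were thus chosen by their measured FPKM in the 4 time-course columns, and the stage values are a description with no test. Of 94 genes that met both limits, 8 were left out by the beginning of their names (short RNAs, histones and predicted genes) and *Fgf15* and *Zic5* as members of large gene families. The time course followed F1G4 mouse embryonic stem cells (mESCs), a hybrid line, from feeder-depleted aggregates (ES, day 0) through days 1, 2 and 3 in medium with 20 ng/ml Bmp4, for which the labels list 2 samples at every stage. The lines *Eomes* KO, *T* KO and the *Eomes*/*T* double KO (dKO), each grown from a picked F1G4 clone and lacking the promoter and first exon of the targeted gene, the dKO made from *Eomes* KO cells, were measured on days 2 and 3 of the same Bmp4 treatment. *Smad4* KO cells, a clone in which Cre removed the floxed first exon, and WT cells with the conditional alleles, both of 129S/SvEvxC57BL/6 strain, were measured on days 1 and 2, and 1 sample is listed per line and day, as for the F1G4 KO lines. Every condition is a single value per gene in the tables, so no difference has a replicate check, no SD or p-value could be given, and the depth is unknown.

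Bmp4 brings mESCs out of the pluripotent state and towards mesoderm. On that way cells leave the naive state, in which they resemble the inner cell mass, and pass through a formative, epiblast-like state marked by *Otx2*, *Pou3f1* and the de novo DNA methyltransferases, before primitive streak genes such as *T* and *Eomes* come on. Bmp4 acts through phosphorylated Smad1/5, which pairs with the shared partner Smad4 to switch on targets such as the *Id* genes, and Nodal acts through Smad2/3 and the same partner. Atf4 is the transcription factor of the integrated stress response, which cells use when amino acids run short or protein folding is disturbed.

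As a check of the labels, FPKM of *Eomes* on day 3 stood at 20.3 in WT and 0.276 in *Eomes* KO cells and at 0.346 in dKO cells, and *T* on day 3 stood at 323 in WT, 3.00 in *T* KO and 1.93 in dKO cells. On day 2 *Eomes* stood at 9.42 in WT, 2.42 in *Eomes* KO and 1.24 in dKO cells, and *T* at 44.8 in WT, 6.64 in *T* KO and 2.77 in dKO cells. *Smad4* itself stood at 33.8 in WT and 39.4 in *Smad4* KO cells on day 1, and on day 2 it stood at 39.3 and 46.8. A value over the whole gene does not check a deletion of its first exon. The summed FPKM of 6 ES cell markers was 1796 in ES cells and 927 on day 1, and that of 5 nascent mesoderm markers was 1.39, 6.23, 84.3 and 435 from ES cells to day 3, so the peak lies before the main increase of mesoderm markers. The 12 fibroblast markers, which would mark remaining feeder cells, summed to 4.78 on day 1, with none listed at 0.

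Over the 84 members the median FPKM was 3.73, 8.49, 4.14 and 2.44 in ES cells and on days 1, 2 and 3. Day 1 values ran from 3.02 to 455, with 12 members at FPKM 50 or more and 44 below 10. The ratio of day 1 to the next highest stage had a median of 1.77 and a maximum of 4.32, was at least 2 for 25 members and at least 3 for *Nupr1*, *Mt3* and *Stox2*. The next highest stage was day 2 for 43 members, ES cells for 32 and day 3 for 9. Only 4 members were below FPKM 1 in ES cells, and 54 stood lower on day 3 than in ES cells, 30 of them at 0.5 times the ES level or less. At FPKM of at least 10, *Kif5c* (ratio 1.50), *Gstt2* (1.52) and *Id1* (1.53) lay just inside the 1.5-fold limit, and *Cbx2* (1.49), *D7Ertd143e* (1.49) and *Prps2* (1.49) just outside it. With FPKM rescaled to TPM, so that each stage sums to the same total, 152 genes met the rule and 77 of the 84 were among them.

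The member with the highest ratio was *Nupr1* (7:126623246-126625470, mm10), a small stress-induced chromatin protein and target of Atf4. Its FPKM was 15.6, 67.5, 14.9 and 4.00 in ES cells and on days 1, 2 and 3, so that day 1 was 4.32 times the next highest stage. Further members of a list of 30 Atf4 and amino acid stress genes were *Ddit3*, *Trib3* and *Mthfd2*. *Ddit3*, which encodes the stress transcription factor Chop, stood at 3.10, 26.9, 15.6 and 11.2. *Trib3*, a pseudokinase that Atf4 and Chop induce, stood at 10.1, 23.0, 14.0 and 6.64. *Mthfd2*, a mitochondrial enzyme of one-carbon metabolism, stood at 48.5, 111, 71.1 and 45.9. In ES cells *Ddit3* was far below its other values, whereas *Nupr1* was lowest on day 3. Of the 27 genes of this list with day 1 FPKM of at least 3, 4 (14.8%) were members, whereas 0.969% of all 8668 genes at that level were, and 19 (70.4%) had their highest value on day 1, as did 17.5% of all genes at that level. *Atf4* itself stood at 192, 359.9, 302 and 197, below the limit, *Chac1*, a glutathione-degrading enzyme, at 2.66, 12.7, 8.77 and 3.61, and *Asns*, asparagine synthetase, was highest on day 2 (76.6, 139, 177 and 154). The list was chosen with earlier results of these data known, and its share among members is a count, not a test.

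The promoters of 63 members were found in RefSeq's table for GRCm38.p6 (250 bases before to 50 after the start site). A gene was counted when any of its promoters held the letters searched. Letters bound by Atf4 with its partners, TGATGNAA on either strand, were counted in 5 members (7.94%). They were counted in 2.52% of genes at FPKM 3 or more on day 1 and in 4.51% of all genes with a promoter. The 5 were *Arhgef2*, *Nupr1*, *Ptgr1*, *Serpinf1* and *Trib3*. The 250 bases before the start sites of *Nupr1* (7:126625471-126625720, minus strand) and *Ptgr1* (4:58987079-58987328, minus strand), an enzyme that reduces reactive lipid aldehydes, are shown because both genes were called lower in *Eomes* KO and *T* KO cells on day 2, with the match in capitals.
Nupr1: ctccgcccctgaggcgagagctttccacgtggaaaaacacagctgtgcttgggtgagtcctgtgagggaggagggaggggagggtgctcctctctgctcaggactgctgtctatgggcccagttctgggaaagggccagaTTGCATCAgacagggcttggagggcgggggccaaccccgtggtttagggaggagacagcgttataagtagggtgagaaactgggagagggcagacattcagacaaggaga
Ptgr1: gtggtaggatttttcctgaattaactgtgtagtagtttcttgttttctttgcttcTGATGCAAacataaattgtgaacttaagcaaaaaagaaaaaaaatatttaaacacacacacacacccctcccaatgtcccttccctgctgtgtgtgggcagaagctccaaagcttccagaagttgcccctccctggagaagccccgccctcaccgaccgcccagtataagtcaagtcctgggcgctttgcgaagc
In *Nupr1* the match began 110 bases before the start site and reads on the reverse strand, and in *Ptgr1* it began 195 bases before it. A match is a description of letters and not a measured binding site. Members with the letters did not all go 1 way on day 2. *Trib3* was also called lower in *Eomes* KO and *T* KO cells. *Serpinf1* was called higher in *Eomes* KO cells (log2 ratio 1.05), with 0.87 in *T* KO cells. *Ddit3* and *Mthfd2*, called lower in both lines, had promoters without a match.

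The formative pluripotency list of 22 genes held the most members, 6 of the 20 at FPKM of at least 3 on day 1 (30%). *Dnmt3b* (2:153649411-153687730, mm10), a de novo DNA methyltransferase, had the highest day 1 level of all members, at 218, 455, 148 and 91.2 in ES cells and on days 1, 2 and 3. *Dnmt3a*, its paralogue, stood at 30.6, 53.1, 14.3 and 11.5. *Otx2*, a homeobox factor that directs exit from the naive state, stood at 27.0, 54.1, 19.3 and 11.5, so all 3 were already well expressed in ES cells and ended below that level. *Pou3f1*, an epiblast POU factor, stood at 4.29, 13.9, 5.28 and 6.52. *Sall2*, a zinc-finger factor, stood at 1.81, 12.9, 5.95 and 3.89. *Sox4*, a SoxC factor, stood at 1.91, 5.79, 3.13 and 3.56. These 3 transcription factor genes began low and were on day 3 above their ES level. Other genes of the list did not follow this course. *Dnmt3l* was at its highest in ES cells (248, 125, 23.4 and 7.71), as was *Tcf15* (35.6, 10.4, 3.20 and 3.48), *Lin28a* was highest on day 1 but less than 1.5 times its day 2 value (171, 281, 214 and 190.2), and *Tead2* was highest on day 3 (35.8, 69.0, 95.2 and 97.8). None of 19 naive pluripotency genes was a member or had its highest value on day 1 among the 11 at FPKM of at least 3.

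Among secreted factors and signalling genes, *Cxcl12* (6:117168535-117181368, mm10), a chemokine that guides migrating cells, was one of the 4 members nearly silent in ES cells and stood at 0.452, 10.3, 3.54 and 1.36. *Crabp2*, which carries retinoic acid to the nucleus, stood at 15.6, 55.1, 18.7 and 18.7. *Calca*, the calcitonin and CGRP gene, stood at 18.4, 31.1, 11.3 and 7.71. *Id1*, an inhibitor of basic helix-loop-helix factors and an immediate target of BMP signalling, stood at 22.4, 79.7, 52.1 and 29.2 and was the only member on a list of 18 BMP target genes. Its relatives were also highest on day 1 but kept more of that level on day 2, with *Id2* at 8.81, 83.7, 63.2 and 25.4 and *Id3* at 14.9, 52.6, 40.4 and 40.9. The early peak was therefore sharp for *Crabp2* and *Cxcl12* and shallow for *Id1*. *Rragd*, a Rag GTPase in the nutrient-sensing mTORC1 pathway, stood at 17.6, 62.2, 34.6 and 26.2, and *Slc9a3r1*, a PDZ scaffold of the cell cortex, at 48.3, 77.2, 48.6 and 46.7.

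Further members with high ratios are put together here by their known roles, with no list behind them. *Myb*, a proto-oncogene transcription factor, stood at 5.38, 12.6, 4.28 and 1.17, *Zfp36l2*, which promotes decay of AU-rich mRNAs, at 4.00, 17.1, 6.05 and 6.05, and *Usp44*, a histone H2B deubiquitinase, at 6.04, 19.8, 11.7 and 4.09. *Meioc*, a regulator of meiotic mRNAs, stood at 4.35, 14.4, 7.14 and 2.24 and *Chd9*, a chromodomain helicase, at 14.7, 25.9, 11.8 and 4.29. By ratio *Myb* and *Meioc* lost the most of their day 1 level by day 3, and *Zfp36l2* the least. Genes of lipid and redox metabolism included *Mid1ip1*, which activates acetyl-CoA carboxylase (24.9, 55.6, 27.8 and 16.9), the secreted phospholipase *Pla2g10* (11.6, 20.0, 7.04 and 2.27), *Ptgr1* (20.2, 33.4, 20.9 and 11.5) and the carbonyl reductase *Cbr3* (22.5, 44.0, 17.1 and 6.25). Relative to day 1 the ES level was lowest in *Mid1ip1*. *Fth1*, the heavy chain of the iron store ferritin, stood at 228, 349.9, 187 and 138, a value that processed copies of the gene could share. *Snrpn*, an imprinted gene whose transcript also carries *Snurf*, stood at 115, 178, 104 and 112, and *Meg3*, an imprinted long non-coding RNA, at 4.00, 7.48, 4.32 and 3.61.

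**Figure D1:**
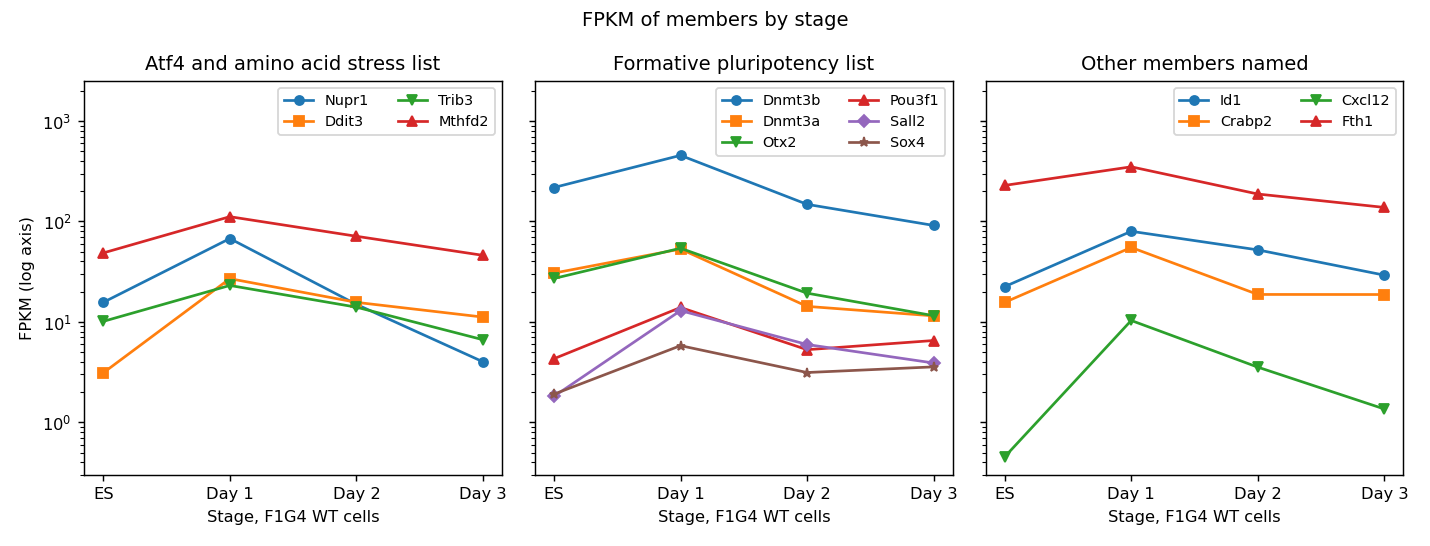
FPKM on a log axis (y) in ES cells and on days 1, 2 and 3 (x) of F1G4 WT cells for 14 members, 1 deposited value per stage without error bars. Each line is highest on day 1, as the choice of members requires. *Cxcl12* starts at 0.452 and *Dnmt3b* reaches 455.

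Of 21 gene lists, only the Atf4, formative pluripotency and BMP target lists held members. No member was on the lists of cholesterol synthesis and uptake, fatty acid synthesis, the unfolded protein response, p53 targets, hypoxia and glycolysis, immediate early genes, naive pluripotency, FGF/ERK feedback, SRF and YAP targets, oxidative stress and metallothioneins, WNT targets, the Nodal pathway, Notch targets, two-cell-like genes, or markers of fibroblasts, primitive endoderm, trophoblast and neural cells. The FPKM minimum fixed part of this, as no gene of the two-cell-like, fibroblast and primitive endoderm lists had a day 1 FPKM of at least 3, 1 each of the Notch and trophoblast lists did, 2 of the neural and 3 of the WNT list. In the cholesterol list 13 of 25 genes (52%, beside 17.5% of all genes at that level) nevertheless had their highest value on day 1, each within the 1.5-fold limit of another stage, and *Mt3*, a metallothionein that the oxidative stress list does not hold, was a member at 1.59, 6.71, 1.70 and 0.515.

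WT cells of the *Smad4* line were not used by the rule and show how far the day 1 peak was seen in another line. From day 1 to day 2, 37 of 84 members were at least 1.5 times higher on day 1 and none at least 1.5 times higher on day 2, where 11.9% and 9.92% of all 11152 genes examined (FPKM above 1 on either day) were. Day 1 to day 2 log2 ratios had a median of 0.51 for the members and −0.03 for genes at FPKM of at least 3 on day 1 in F1G4 cells. Of 49 examined genes that peaked on day 2 by the same rule in F1G4 cells, 7 were higher on day 1 and 11 on day 2. The 2 days of this line are columns of separate tables, and ES cells and day 3 of the line were not analysed here. On day 1, 68 members stood lower in this line than in F1G4 cells (median log2 ratio −0.54, against −0.09 for all genes at that level), a direction in part set by choosing members for high values in F1G4 cells, and 72 were at FPKM 3 or more.

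In this line 3 of the 4 stress members and none of the 6 formative members were at least 1.5 times higher on day 1. *Nupr1* stood at 18.9 on day 1 and 3.13 on day 2 in WT cells of the *Smad4* line (log2 ratio 2.60), *Id1* at 77.1 and 16.1 (2.26), *Trib3* at 25.8 and 7.78 (1.73) and *Ddit3* at 22.3 and 7.86 (1.51). The fourth stress member, *Mthfd2*, stood at 73.1 and 55.1 (0.41), a smaller ratio than that of the formative *Otx2*. The 5 steepest declines at FPKM of at least 3 were those of *Nupr1* and *Id1* with *Spata45* (2.17), *Tstd1* (2.16) and the secreted serpin *Serpinf1* (2.16). Among the formative members *Dnmt3b* stood at 242 on day 1 and 268 on day 2, *Dnmt3a* at 16.0 and 16.8, and *Otx2* at 22.9 and 15.3 (0.58). The ratio of *Otx2* lay just below the 1.5-fold limit. *Pou3f1* (−0.53), *Sox4* (−0.49) and *Sall2* (−0.38) were higher on day 2 and had 3 of the 5 lowest ratios at FPKM of at least 3, beside *Lysmd2* (−0.39) and *Cdc14a* (−0.28). *Crabp2* (46.5 and 23.4) declined as in F1G4 cells, and *Cxcl12* (4.96 and 3.72) little.

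In *Smad4* KO cells on day 1 most members were near their WT level. Genes with FPKM above 1 in KO or WT cells were examined, and those with a log2 ratio of KO to WT above 1 or below −1 were called. By this rule 3 of 84 members (3.57%) were called higher and 4 (4.76%) lower, beside 2.36% higher and 2.41% lower of all 11232 genes examined. Among genes at FPKM of at least 3 on day 1, 0.591% were called higher and 0.869% lower. *Id1* stood at 77.1 in WT and 2.14 in KO cells, a log2 ratio of −5.17. *Serpinf1* stood at 3.57 in WT and 0.785 in KO cells (−2.19), *Alox5ap*, the activator of leukotriene synthesis, at 4.60 in WT and 1.24 in KO cells (−1.89), and *Coch*, an extracellular matrix protein, at 5.81 in WT and 2.60 in KO cells (−1.16). *Cxcl12* was higher, at 4.96 in WT and 13.8 in KO cells (1.48), as were *Snrpn* (1.25) and *Pou3f1* (6.58 in WT and 14.7 in KO cells, 1.16). None of the 4 stress members was called on day 1, with log2 ratios from −0.56 for *Trib3* to 0.19 for *Nupr1*. Of the BMP target list 10 of 12 genes examined were lower.

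On day 2 more members were called in *Smad4* KO cells, most of them higher. Of 83 members examined, 19 (22.9%) were called higher and 5 (6.02%) lower, whereas 2.56% and 3.21% of all 10999 genes examined were. The median log2 ratio was 0.51 over the members and −0.01 over the genes at FPKM of at least 3 on day 1, of which 1.08% were called higher. Counted without a size limit, 61 of 83 members (73.5%) stood above WT, as did 47.1% of those genes, and the other 22 did not. Of 49 genes that peaked on day 2, 2 were called higher and 7 lower. WT cells of the *Smad4* line, which carry the conditional alleles, also differ in strain from F1G4 WT cells. On day 2, 0.648% of genes at FPKM of at least 3 on day 1 were more than 2-fold higher in them than in F1G4 WT cells. More than 2-fold lower were 2.08%. Of the members 4.76% were higher and 5.95% lower.

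*Cxcl12* stood at 3.72 in WT and 26.3 in KO cells (log2 2.82), a higher level than either cell type had on day 1. *Dtna*, dystrobrevin alpha of the dystrophin complex, stood at 1.47 in WT and 6.41 in KO cells (2.13), *Crabp2* at 23.4 in WT and 91.9 in KO cells (1.98), and *Map7d3*, a microtubule-binding protein, at 6.42 in WT and 20.7 in KO cells (1.69). For these 4 genes the *Smad4* KO cells on day 2 held at least the level of WT cells of their line on day 1. *Otx2* was the clearest formative member, at 15.3 in WT and 54.2 in KO cells (1.82). *Sox4* stood at 7.01 in WT and 16.3 in KO cells (1.22) and *Sall2* at 8.85 in WT and 19.9 in KO cells (1.17). *Dnmt3b* (268 in WT and 467 in KO cells, 0.80), *Pou3f1* (0.68) and *Dnmt3a* (0.40) were also above WT without reaching the limit. *Myb* (1.28), *Ptpn13* (1.22), *Zfp36l2* (1.16), *Calca* (1.08) and *Snrpn* (141 in WT and 353 in KO cells, 1.33) were called higher too. Of the whole formative list 7 of 22 genes were called higher and *Dnmt3l* lower, whereas 8 of 13 naive genes examined were lower and *Sox2* was higher. In the same columns the summed FPKM of 10 neural markers was 11.4 in WT and 32.6 in KO cells, with 1 marker at 0 in each, that of 12 fibroblast markers was 5.96 and 8.34, and that of 5 nascent mesoderm markers was 86.0 and 4.08. The part of these shifts in cell type in the members' ratios was not tested, and in bulk samples fewer cells of a type and less RNA per cell cannot be told apart.

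The 4 stress members stood below WT. On day 2 *Trib3* stood at 7.78 in WT and 2.61 in KO cells (−1.58) and *Ddit3* at 7.86 in WT and 3.24 in KO cells (−1.28), both called lower, while *Nupr1* (3.13 in WT and 2.17 in KO cells, −0.53) and *Mthfd2* (55.1 in WT and 42.2 in KO cells, −0.38) were below WT within the limit. *Id1* (16.1 in WT and 0.806 in KO cells, −4.32), *Alox5ap* (−2.18) and the retinoid receptor gene *Rxrg* (−1.14) completed the 5 lower members. *Id1* was thus lower on both days.

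From day 1 to day 2 within *Smad4* KO cells, 27 of 83 members were at least 1.5 times higher on day 1 and 8 at least 1.5 times higher on day 2, beside 10.6% and 7.25% of 11180 genes. The median log2 ratio of day 1 to day 2 was 0.01, against 0.51 in WT cells of the line. Of the 37 members at least 1.5 times higher on day 1 in WT cells, 25 were so in KO cells and 12 were not. *Nupr1* (log2 3.32), *Trib3* (2.74) and *Ddit3* (2.53) declined in KO cells by more than in WT cells, whereas *Crabp2* (−0.74), *Map7d3* (−1.03), *Cxcl12* (−0.93) and *Otx2* (−0.52) were higher on day 2 than on day 1. Counted against WT cells of the line on day 1, 45 of 84 members (53.6%) were at or above that level in KO cells on day 2, near the 51.7% of genes at FPKM of at least 3 on day 1, and 17 (20.2%) in WT cells on day 2, where 52.3% of those genes were.

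**Figure D2:**
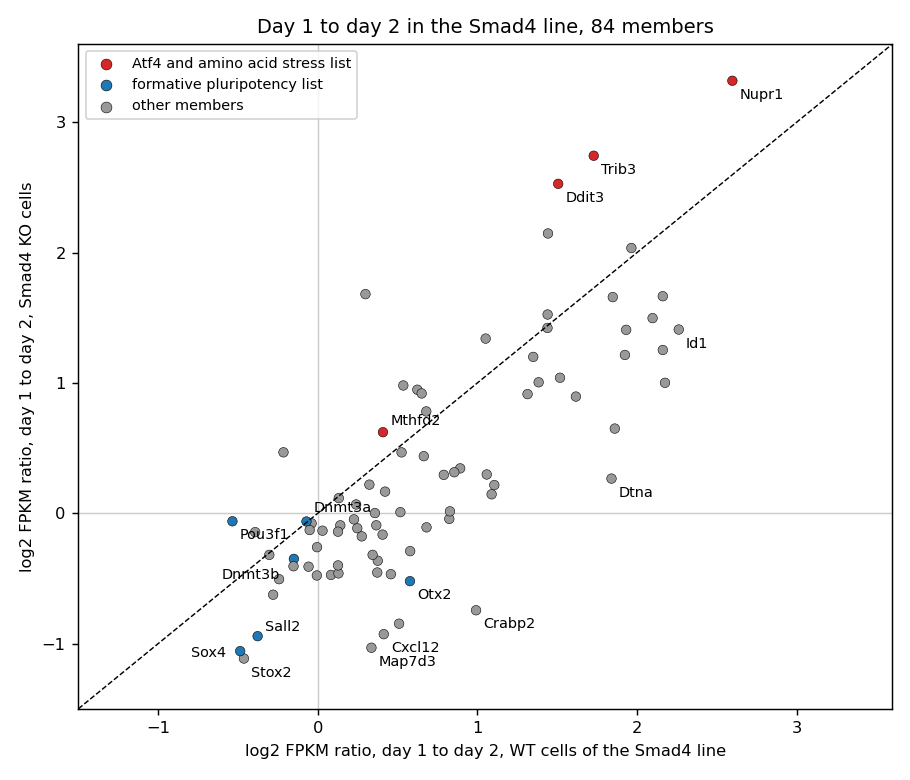
Log2 ratio of FPKM on day 1 to day 2 in WT cells of the *Smad4* line (x) and in *Smad4* KO cells (y), 1 point per member, with the dashed line where both are equal. *Nupr1*, *Trib3* and *Ddit3* lie above the line at the upper right, and *Crabp2*, *Cxcl12*, *Map7d3*, *Otx2* and *Dtna* below it (*Crabp2* at 0.99 and −0.74).

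A pair of promoters of members higher or above WT in *Smad4* KO cells are shown because the GC-rich Smad letters, GGCGCC, lie before their start sites, in capitals. Counted by gene, these letters were in a promoter of 18 of 63 members (28.6%). This was near the 26.2% of genes at FPKM of at least 3 on day 1 and above the 13.4% of all genes. The windows are 6:117168285-117168534 (*Cxcl12*, plus strand) and 2:153649199-153649448 (*Dnmt3b*, plus strand) of GRCm38.p6.
Cxcl12: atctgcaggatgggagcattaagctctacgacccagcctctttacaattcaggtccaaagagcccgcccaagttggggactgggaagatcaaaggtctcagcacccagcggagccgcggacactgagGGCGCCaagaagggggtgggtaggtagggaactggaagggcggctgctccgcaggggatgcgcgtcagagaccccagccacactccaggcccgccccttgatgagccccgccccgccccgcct
Dnmt3b: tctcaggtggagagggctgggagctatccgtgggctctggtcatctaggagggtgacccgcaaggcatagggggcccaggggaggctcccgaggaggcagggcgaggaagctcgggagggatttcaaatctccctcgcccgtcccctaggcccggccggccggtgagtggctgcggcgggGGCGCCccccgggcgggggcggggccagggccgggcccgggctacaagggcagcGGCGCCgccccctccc
The first match lay 123 bases before the start site in *Cxcl12* and 70 in *Dnmt3b*. The start site used for *Dnmt3b* lies inside the gene span given above, so the end of its window overlaps that span. Other letters were searched on either strand and counted by gene in members, genes at FPKM of at least 3 on day 1 and all genes. TGACGTCA (the cyclic AMP element) was in 3.17%, 4.36% and 2.03%, and CACGTG (the E-box) in 11.1%, 13.1% and 8.09%. TCACNCCAC (a sterol element) was in 3.17%, 1.41% and 1.44%. CTTTGAT (Tcf/Lef) was in 4.76%, 2.9% and 4.29%, and CCAAT (NF-Y) in 50.8%, 44.5% and 41.1%.

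In the tables of F1G4 KO cells the WT columns are the day 2 and day 3 values that the rule used, and members were chosen to be low there, so a KO value above WT is in part set by the choice. The *Eomes* KO, *T* KO and dKO tables of a day share these WT samples. On day 2, 9 of 81 members were called higher and 7 lower in *Eomes* KO cells (3.35% and 4.17% of 11226 genes), 6 higher and 15 lower of 81 in *T* KO cells (5.7% and 9.93% of 11359), and 3 higher and 7 lower of 82 in dKO cells (3.48% and 4.5% of 11195). On day 3, 16 of 71 were higher and 8 lower in *Eomes* KO cells (7.39% and 9.01% of 11629), 7 higher and 5 lower of 68 in *T* KO cells (2.12% and 3.92% of 11239), and 20 higher and 4 lower of 73 in dKO cells (5.51% and 5.53% of 11473). The median log2 ratios on day 3 were 0.52, 0.06 and 0.30. Rescaling to TPM moved all genes by −0.22, 0.28, −0.41 and −0.11 in *Eomes* KO cells on days 2 and 3 and dKO cells on days 2 and 3, and the members called higher and lower became 3 and 12, 34 and 8, 2 and 18, and 19 and 7. Genes that peaked on day 2, which the same choice also makes low on day 3, gave 9 higher and 8 lower of 48 in *Eomes* KO, 3 and 4 of 50 in *T* KO and 14 and 3 of 49 in dKO cells on day 3.

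**Figure D3:**
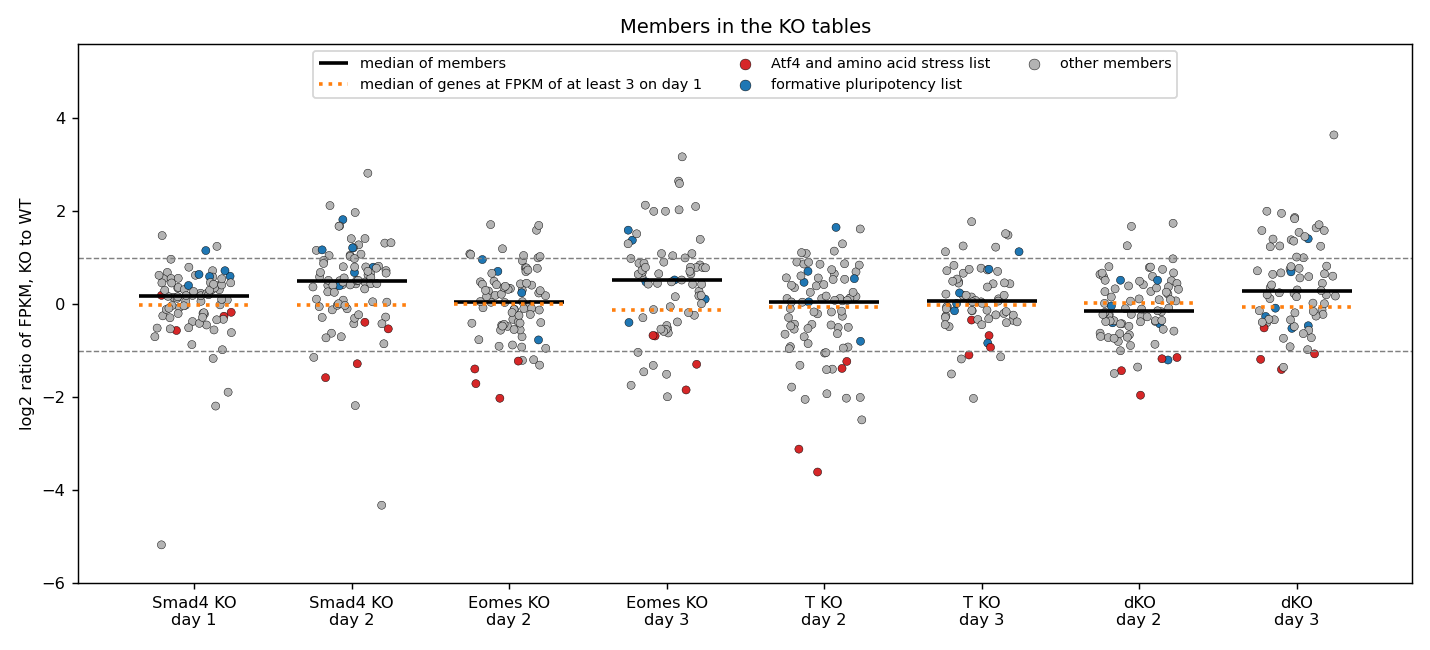
Log2 ratio of FPKM in KO to WT cells (y) for members with FPKM above 1 in either group, 1 point per member, in the 8 comparisons (x). Black bars are the members' medians (0.51 in *Smad4* KO cells on day 2), dotted orange bars those of genes at FPKM of at least 3 on day 1, and dashed lines the limits of 1 and −1. The stress members (red) lie below the members' median in each F1G4 KO column.

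The 4 stress members were called lower in each F1G4 KO line on day 2, among 7 lower members in *Eomes* KO, 15 in *T* KO and 7 in dKO cells. *Trib3* stood at 13.9 in WT and 3.43 in KO cells (−2.02) for *Eomes*, at 14.4 in WT and 1.67 in KO cells (−3.11) for *T* and at 13.9 in WT and 3.58 in KO cells (−1.95) for the dKO. *Ddit3* stood at 15.5 in WT and 4.74 in KO cells (−1.70), 16.1 in WT and 1.32 in KO cells (−3.60) and 15.4 in WT and 6.99 in KO cells (−1.14) in the same order. *Nupr1* had log2 ratios of −1.39, −1.38 and −1.43, and *Mthfd2* of −1.22, −1.23 and −1.17. On day 3 *Mthfd2* (−1.29, −0.92 and −1.18) and *Trib3* (−1.84, −0.67 and −1.06) were called lower in *Eomes* KO and dKO cells, *Nupr1* in dKO cells (−1.40) and *Ddit3* in *T* KO cells (−1.09). Of the whole Atf4 list, 13 of 29 genes examined were called lower in *Eomes* KO, 13 of 29 in *T* KO and 11 of 29 in dKO cells on day 2, with none higher, and 12, 6 and 10 of 28 on day 3, with none higher. In the same columns of day 2 the immediate early genes, which handling of cells can induce, were called lower for 8, 6 and 10 of 17 genes and higher for none, *Atf3* being on both lists, and the unfolded protein response list for 1, 4 and 1 of 15. The part of these lists in the stress members' values was not tested. In *Smad4* KO cells 4 of 30 were lower and *Slc7a3* higher on day 2, and none was called on day 1. *Ptgr1* was lower on day 2 in *Eomes* KO (−1.19) and *T* KO cells (−1.78), with −0.73 in dKO cells.

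*T* KO cells on day 2 had the most members called lower. Beside *Ddit3* and *Trib3*, *Fth1* stood at 193 in WT and 34.5 in KO cells (−2.48), *Jakmip2*, a microtubule-associated protein, at 3.65 in WT and 0.913 in KO cells (−2.00), *Snrpn* at 107 in WT and 40.6 in KO cells (−1.40) and *Cbr3* at 17.5 in WT and 6.68 in KO cells (−1.39). The share of all genes called lower was also highest in this comparison on day 2, and the 25% of genes with the highest GC content had a median log2 ratio of 0.14 and the 25% with the lowest −0.08. With trends by GC content and transcript length removed, an alternative chosen after the data were seen, *Ddit3* was at −3.29, *Trib3* at −3.26 and *Fth1* at −2.35.

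More members were called higher on day 3 than on day 2 in *Eomes* KO and dKO cells, and 7 and 6 in *T* KO cells, which became 7 and 8 with TPM. *Cxcl12* stood at 1.41 in WT and 12.7 in KO cells (3.17) for *Eomes*, 1.37 in WT and 4.68 in KO cells (1.78) for *T* and 1.40 in WT and 4.60 in KO cells (1.71) for the dKO, and was called in each. In the *Eomes* KO column of day 3 the 12 fibroblast markers summed to 20.5 and in WT to 9.34, with none at 0 in either. On day 3 the 5 nascent mesoderm markers summed to 454 in WT and 8.99 in KO cells for *Eomes*, 439 and 32.2 for *T*, and 452 and 22.7 for the dKO, with none at 0. The 10 neural markers summed to 10.1 and 20.2, 9.77 and 7.96, and 10.1 and 36.3 in the same order, with 2 or 3 of them at 0. The 10 trophoblast markers summed to 69.8 and 89.1, 67.6 and 105, and 69.5 and 128, with 1 or 2 at 0. In the WT time course *Krt7* alone held 46.4 of the 67.0 on day 3. Of 6 trophoblast markers examined in each line, *Cdx2* was called lower in all 3. Only 1 was called higher in each, *Tfap2a*, *Ascl2* and *Krt7* in the same order. The summed mesoderm markers were lower in all 3 lines. These 5 markers include *T* and *Eomes*, the targeted genes, so the lower sums are in part fixed by the knockouts. *T* alone stood at 323 in WT and 3.00 in KO cells of the *T* table. The summed neural markers were higher in *Eomes* KO and dKO cells. Of the neural markers, 1 of 3 examined was called higher in *Eomes* KO cells (*Sox1*). In dKO cells 3 of 4 were called higher (*Sox1*, *Pax6* and *Tubb3*), and in *T* KO cells 0 of 2. The part of these shifts in the members called higher, *Cxcl12* included, was not tested. *Dtna* was called higher in all 3 lines (2.13, 1.52 and 1.59), *Sall2* likewise (1.60, 1.13 and 1.41), and *Myb* in *Eomes* KO and dKO cells (2.00 and 1.87, with 0.84 in *T* KO). *Crabp2* stood at 19.5 in WT and 40.3 in KO cells (1.05) in the *Eomes* table and 19.4 in WT and 56.8 in KO cells (1.55) in the dKO table. *Meg3* was called higher on day 3 in *Eomes* KO (2.60) and dKO cells (1.02). *Calca* was called higher in 5 of the 6 columns, from 1.09 in *T* KO to 1.70 in *Eomes* KO cells on day 2, with 0.65 in *Eomes* KO cells on day 3.

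The formative members other than *Sall2* were mostly near WT in these lines. *Otx2* had log2 ratios of 0.53, 0.76 and −0.26 on day 3 for the *Eomes* KO, *T* KO and dKO, *Dnmt3b* of 0.48, −0.14 and −0.46, and *Dnmt3a* of −0.39, 0.02 and −0.08. *Sox4* was called higher in *Eomes* KO cells on day 3 (1.38) and *Pou3f1* lower in dKO cells on day 2 (−1.20). No formative member besides *Sall2* was called higher in the *T* KO or dKO tables. Among other genes lower on day 3, *Cbr3* stood at −1.45 in *Eomes* KO and −1.17 in *T* KO cells, and in *Eomes* KO cells *Snrpn* at −1.74 and *Fth1* at −1.31. In *Eomes* KO cells on day 3 the median log2 ratio was −0.23 for the 25% of genes with the shortest transcripts and 0.18 for the 25% with the longest, and with such trends removed *Snrpn* was at −1.46 and *Fth1* at −1.11.

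The *Smad4* and F1G4 tables have separate WT cells. The dKO cells on day 3 shared 11 of the 19 members called higher in the *Smad4* KO on day 2 (57.9%, and 55% of the 20 of the dKO), and *Eomes* KO cells on day 3 shared 8 (42.1%, and 50% of their 16). In *T* KO cells on day 3 there were 4, *Cxcl12*, *Sall2*, *Calca* and *Dtna*. No such overlap over all genes is given here. Members were chosen to be low in the day 3 WT column of F1G4 cells, so these overlaps are in part set by the choice. Over all 8 comparisons 28 members were called in none, 33 only higher, 14 only lower and 9 in both directions. These counts have no share over all genes beside them. The choice of members also bears on the F1G4 comparisons, so the number called only higher is in part set by it.

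**Figure D4:**
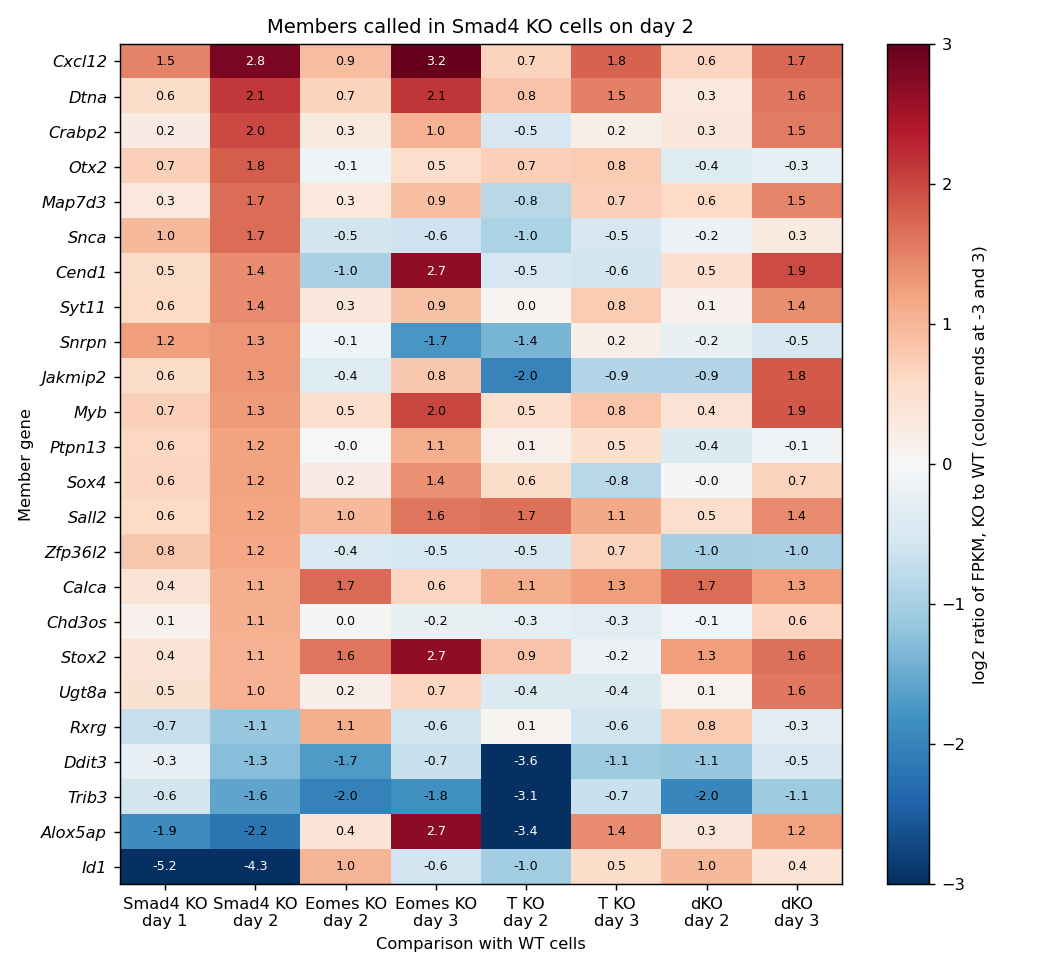
Log2 ratio of FPKM in KO to WT cells, written in each cell and shown by colour, for the 24 members called in *Smad4* KO cells on day 2 (rows) in the 8 comparisons (columns). *Cxcl12* is above 0 in every column, *Ddit3* and *Trib3* below 0 in every column, and *Id1* is at −5.17 and −4.32 in *Smad4* KO cells and between −1.04 and 1.03 in the others.

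The members lay on 20 chromosomes with 1 to 8 on each. Chromosome 2 held 8 (9.52%, beside 7.88% of genes at FPKM of at least 3 on day 1), chromosome 3 held 7 (8.33% and 4.76%), and chromosomes 12 and X held 6 each (7.14%, beside 3.75% and 3.47%). Chromosome 8, which holds *Stox2* and *Chd9*, had median log2 ratios from 0.17 to 0.23 over all genes in the F1G4 KO columns, beside which *Stox2* stood at 1.59 and 1.26 on day 2 in *Eomes* KO and dKO cells. By RefSeq 79 members code for proteins and 5 are long non-coding RNAs. Their longest transcripts had a median length of 2812 bases and a GC content of 49.8%, and those of genes at FPKM of at least 3 on day 1 had 3281 bases and 48.9%.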

How the data were processed

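RNA-seq values of 18 samples were used. The authors trimmed reads with cutadapt 2.9, aligned them with HISAT2 2.1.0 to mm10 with refSeq splice sites, sorted them with SAMtools 1.9 and computed FPKM with Cuffdiff 2.2.1 (multi-read and bias correction, no effective length correction), from strand-specific libraries of total RNA. The deposited FPKM tables, the time course and 8 KO tables, hold 1 value per gene and condition, and which samples each value pools is not given in the sources used here (the labels list 2 samples for each F1G4 WT stage and 1 for each other condition, and the study's legends speak of averages over 2 replicates). The F1G4 WT columns of the KO tables are multiples of time-course columns. Read counts were not used here.

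Members, gene lists and named genes were chosen with earlier results of these data known. A gene was examined at FPKM above 1 in either group and called at a log2 ratio above 1 or below −1, limits after the study's methods, whose first limit is printed with the sign for below and was read as above, and no pseudocount was added here. In the time course 4 rows with duplicated names were left out. Named genes were the 25 members with the highest ratio at day 1 FPKM of at least 10, the 10 with the highest day 1 FPKM, members on a list, the 3 members just inside and 3 genes just outside the 1.5-fold limit at day 1 FPKM of at least 10, up to 5 highest and 5 lowest called log2 ratios per KO comparison at FPKM of at least 3, and up to 5 highest and 5 lowest day 1 to day 2 ratios in WT cells of the *Smad4* line. Genes of the lists that are not members were named after their values were seen. The rule and calls were run on simulated data with little noise and changes well away from the limits, which checks the code only. Promoters, positions and classes are RefSeq's for GRCm38, the same assembly as mm10, and lengths GENCODE's. Python 3.11.15, numpy 2.4.6, pandas 2.3.3 and matplotlib 3.10.9 were used.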

Additional observations from a re-analysis of the deposited data

Results flagged for a closer look

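A few members were called in opposite directions in 2 KO lines on the same day, and these differences were not tested, since each column is a single value. On day 2 *Id1* had a log2 ratio of 1.03 in *Eomes* KO cells, −1.04 in *T* KO cells and −4.32 in *Smad4* KO cells. *Rxrg* stood at 1.09 in *Eomes* KO and −1.14 in *Smad4* KO cells. *Jakmip2* stood at 1.32 in *Smad4* KO and −2.00 in *T* KO cells, and *Snrpn* at 1.33 and −1.40 in the same lines. On day 3 *Pik3r3*, a regulatory subunit of PI3 kinase, stood at 1.24 in dKO and −1.13 in *T* KO cells.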

How the results depend on the processing

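No paired analysis was possible because each condition is a single deposited value, and for the same reason no replicate could be left out. The depth is unknown, so low values have no counting error. The count of 84 genes became 214 at 1.3-fold, 25 at 2-fold, 177 at a day 1 FPKM of at least 1, 40 at 10 or more and 152 with TPM. Of the 19 members higher and 5 lower in *Smad4* KO cells on day 2, FPKM above 5 left 3 lower, and a limit of 1.5-fold gave 36 higher and 9 lower. On day 1 these gave 2 lower, and 14 higher and 8 lower. From day 1 to day 2, members higher on day 1 numbered 24 in WT and 17 in KO cells of the *Smad4* line at FPKM above 5, those higher on day 2 numbered 3 and 13 with TPM, and 3 in KO cells at 2-fold. With TPM 3 members were higher and 12 lower in *Eomes* KO cells on day 2, 34 higher on day 3, 18 lower in dKO cells on day 2 and 7 lower on day 3. A pseudocount of 1 left 4 higher in *Eomes* KO cells on day 2, 2 higher and 1 lower in *T* KO cells on day 3, and 9 higher and 2 lower in dKO cells on day 3. FPKM above 5 left 4 higher in *Eomes* KO cells on day 2 and 10 higher and 5 lower on day 3, 2 higher and 2 lower in *T* KO cells on day 3, 1 higher in dKO cells on day 2, and 7 higher and 2 lower on day 3. At 1.5-fold the members higher and lower were 18 and 14 in *Eomes* KO cells on day 2, 17 and 24 in *T* KO cells on day 2, 15 and 8 on day 3, 13 and 18 in dKO cells on day 2 and 31 and 9 on day 3, and 34 were higher in *Eomes* KO cells on day 3. Where the limit or the minimum changed, that change made the count differ, and for TPM and the pseudocount the cause was not tested. The other 120 alternative counts stayed within 1.5 times their value, among them all with trends by GC content and length removed.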
